A study of Homo sapiens with 12 samples.

Results

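The genes described here are 40 genes of mitosis: the kinases and cyclins that drive entry into it, the spindle checkpoint and the anaphase machinery, kinetochore proteins and spindle proteins. Their names were set as a list, and each gene is represented by its brightest probe set (the highest mean over all arrays) among those with a single gene symbol. All 40 were found among the 11963 genes measured. RNA came from the MDA-MB-231 line, which was derived from a human breast cancer and is mesenchymal and triple-negative, and was hybridised to 12 Affymetrix arrays, 1 per sample, in 4 groups of 3 biological replicates. Cells received lentiviral particles with a short hairpin RNA (shRNA) against the histone deacetylase HDAC5, or a scramble shRNA as its control; in a second experiment they received an shRNA against the histone demethylase LSD1, whose gene is KDM1A, or a scramble shRNA tagged as belonging to that experiment. The scramble set without a tag was taken as the control of HDAC5 shRNA. Which hairpin sequences were used, whether cells were selected, whether they were pools or clones, and the time after transduction were not stated, and neither was what separated the replicates, so p-values may measure technical spread.

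In a dividing cell the cyclin-dependent kinase CDK1, with cyclins A and B, starts mitosis, and PLK1 and the Aurora kinases carry out its steps. Kinetochores on the centromeres bind spindle microtubules, and the spindle checkpoint holds back the anaphase-promoting complex (APC/C), a ubiquitin ligase, until all chromosomes are attached. Most of these genes are transcribed in G2 and M phase, through the transcription factors B-MYB and FOXM1 and the MuvB complex at a promoter motif called the CHR, often together with NF-Y bound to CCAAT boxes. In breast cancer their joint level is widely read as a measure of proliferation.

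Because this mode of control is described for most of these genes, their promoter windows were searched for these motifs. The windows run from 250 bases before to 50 after the RefSeq transcript start (GRCh38.p14) and were matched for 33 of the 40 genes; AURKA, TTK, BUB3, UBE2C, BIRC5, TPX2 and FOXM1 had none. The CHR was searched as TTTGAA or TTCGAA, the CCAAT box as CCAAT and the E2F site as TTTGGCGC, TTTCGCGC or TTTCCCGC, each on both strands. TTCGAA reads the same on both strands, and a CCAAT can share letters with its reverse, ATTGG. Matches are letters in a window, not shown binding sites. A CHR match was found in 23 of the 33 windows (69.7%), against 12.4% of the 9562 measured genes with a window, and a CCAAT in 25 (75.8%), against 37.3%. Both were present in 20 windows (60.6%), against 5.25% of all. An E2F match stood in 3 windows (9.09%), those of CDK1, CENPA and NUSAP1, against 4.12% of all. For 34 genes of DNA replication with a window, a list used for comparison throughout, the order of these 2 motifs was the other way: 55.9% had an E2F match and 5.88% a CHR match. CCAAT was above the share of all genes there too, at 52.9%.

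The 130 bases before the start are printed for 5 genes, with CHR and CCAAT matches on either strand in capitals. CCNB2, PLK1, CDC20 and ZWINT are examples of a cyclin, a mitotic kinase, an APC/C activator and a kinetochore gene, and do not represent their groups. HMMR is shown because it was the 1 gene that did not pass the test with HDAC5 shRNA.
CCNB2 (chr15:59105016-59105145, plus strand): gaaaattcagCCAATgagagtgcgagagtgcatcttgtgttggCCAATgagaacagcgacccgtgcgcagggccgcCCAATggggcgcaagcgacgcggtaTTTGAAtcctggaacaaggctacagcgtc
PLK1 (chr16:23678759-23678888, plus strand): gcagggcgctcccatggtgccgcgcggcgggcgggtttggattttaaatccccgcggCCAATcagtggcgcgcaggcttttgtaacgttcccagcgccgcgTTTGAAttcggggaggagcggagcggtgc
CDC20 (chr1:43358851-43358980, plus strand): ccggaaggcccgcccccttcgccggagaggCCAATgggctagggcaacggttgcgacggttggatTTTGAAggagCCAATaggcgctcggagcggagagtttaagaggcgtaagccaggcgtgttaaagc
ZWINT (chr10:56361260-56361389, minus strand): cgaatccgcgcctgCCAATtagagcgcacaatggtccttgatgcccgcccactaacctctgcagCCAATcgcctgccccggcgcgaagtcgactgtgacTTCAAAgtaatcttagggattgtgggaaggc
HMMR (chr5:163460502-163460631, plus strand): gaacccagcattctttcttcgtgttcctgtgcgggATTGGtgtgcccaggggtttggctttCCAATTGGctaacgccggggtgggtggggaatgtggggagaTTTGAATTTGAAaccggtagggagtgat
Each of the 5 windows held both kinds of match, that of HMMR included. Other cyclin, kinase and kinetochore genes differed in their full windows. CCNA2, CCNB1, AURKB and NEK2 had a CCAAT but no CHR match, and PLK4 and NDC80 a CHR match but no CCAAT. MELK and CENPE had neither, whereas CENPA, CENPF and SPC25 had both.

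**Figure D1:**
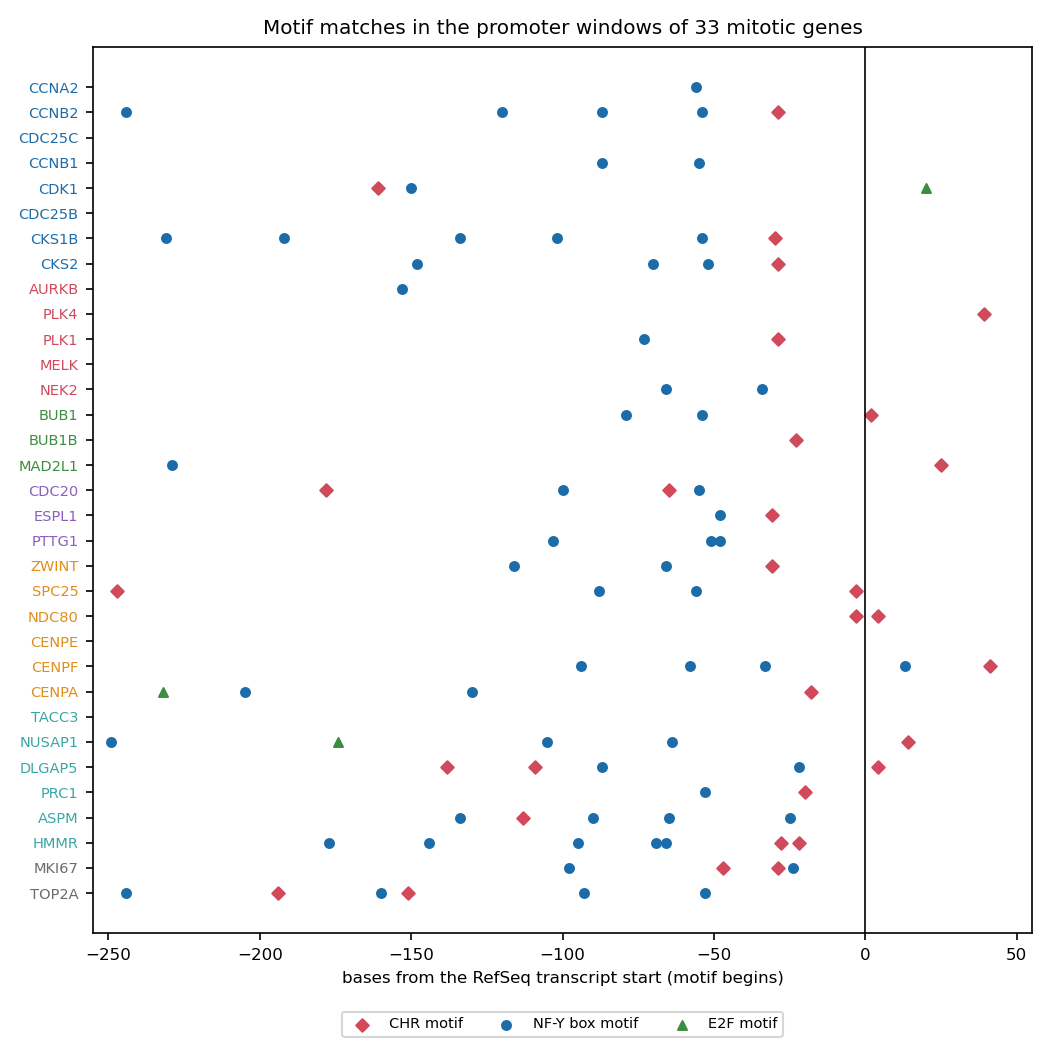
Positions of motif matches on either strand in the promoter windows of the 33 genes with a RefSeq window (rows, names coloured by role), by distance in bases from the transcript start on the x axis. Diamonds are CHR matches, circles CCAAT (NF-Y box) matches and triangles E2F matches; CHR matches lie in 23 of the 33 rows and E2F matches in 3.

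Facts of the whole series that bear on these values were as follows. HDAC5 was lower with its shRNA (6.29 ± 0.18, SD, n = 3) than with scramble (7.40 ± 0.17), a change of -1.11 (limma adjusted p = 1.61e-05), and KDM1A was lower with LSD1 shRNA (6.63 ± 0.17 against 9.72 ± 0.09, change -3.08, adjusted p = 6.99e-05); all values are log2. VIM, CD44, LGALS1 and CAV1, genes of mesenchymal breast lines, lay above the upper quartile of every array. Of 12 markers of luminal, blood, endothelial and fibroblast cells, PGR, PTPRC, VWF and CDH5 lay below the lower quartile of every array and CD14 of 6 arrays, and the other 7 (ESR1, ERBB2, FOXA1, GATA3, CD3E, PECAM1 and PDGFRB) of none, with GATA3 at 8.05 to 9.28. PECAM1 (-0.62), PDGFRB (-0.48) and the dim VWF (-0.31) fell with HDAC5 shRNA, and their part in the results was not tested. The 40 genes were well measured, each at least 2.21 log2 units above the lower quartile of all 12 arrays. Their median SD within a group was 0.056 with HDAC5 shRNA and 0.054 with its scramble, and 0.32 with LSD1 shRNA and 0.084 with its scramble, so a change of a given size was easier to call in the HDAC5 experiment. As a reading of RNA quality, the 3′ probe set of ACTB exceeded the 5′ one by 0.68 ± 0.08 with HDAC5 shRNA and 0.90 ± 0.06 with its scramble, and 1.43 ± 0.12 with LSD1 shRNA and 1.30 ± 0.06 with its scramble (SD, n = 3 each); its part in the results was not tested.

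With HDAC5 shRNA the mitotic genes rose together. Of the 40 genes, 39 rose (limma adjusted p under 0.05 over all 11963 genes) and none fell, where 21.3% of all genes rose and 23.2% fell (44.5% in either direction). All 40 had their 3 HDAC5 shRNA arrays above their 3 scramble arrays, which held for 24.1% of all genes. The median change was 0.85 on the log2 scale, against -0.02 over all genes, and 14 of the 40 genes rose at least 2-fold, against 198 of all 11963 genes. By size of change, 32 of the 40 lay in the top 5% of all genes. The 3 arrays showed the same picture, with a median over the 40 genes of 0.79, 0.86 and 0.79 above the scramble mean on HDAC5 shRNA arrays 1, 2 and 3. The rise was not limited to genes of mitosis, since all 39 DNA replication genes of the comparison list also rose, by a median of 1.52. In RNA of a whole culture, more cells in G2 and M phase and more RNA per such cell cannot be told apart.

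**Figure D2:**
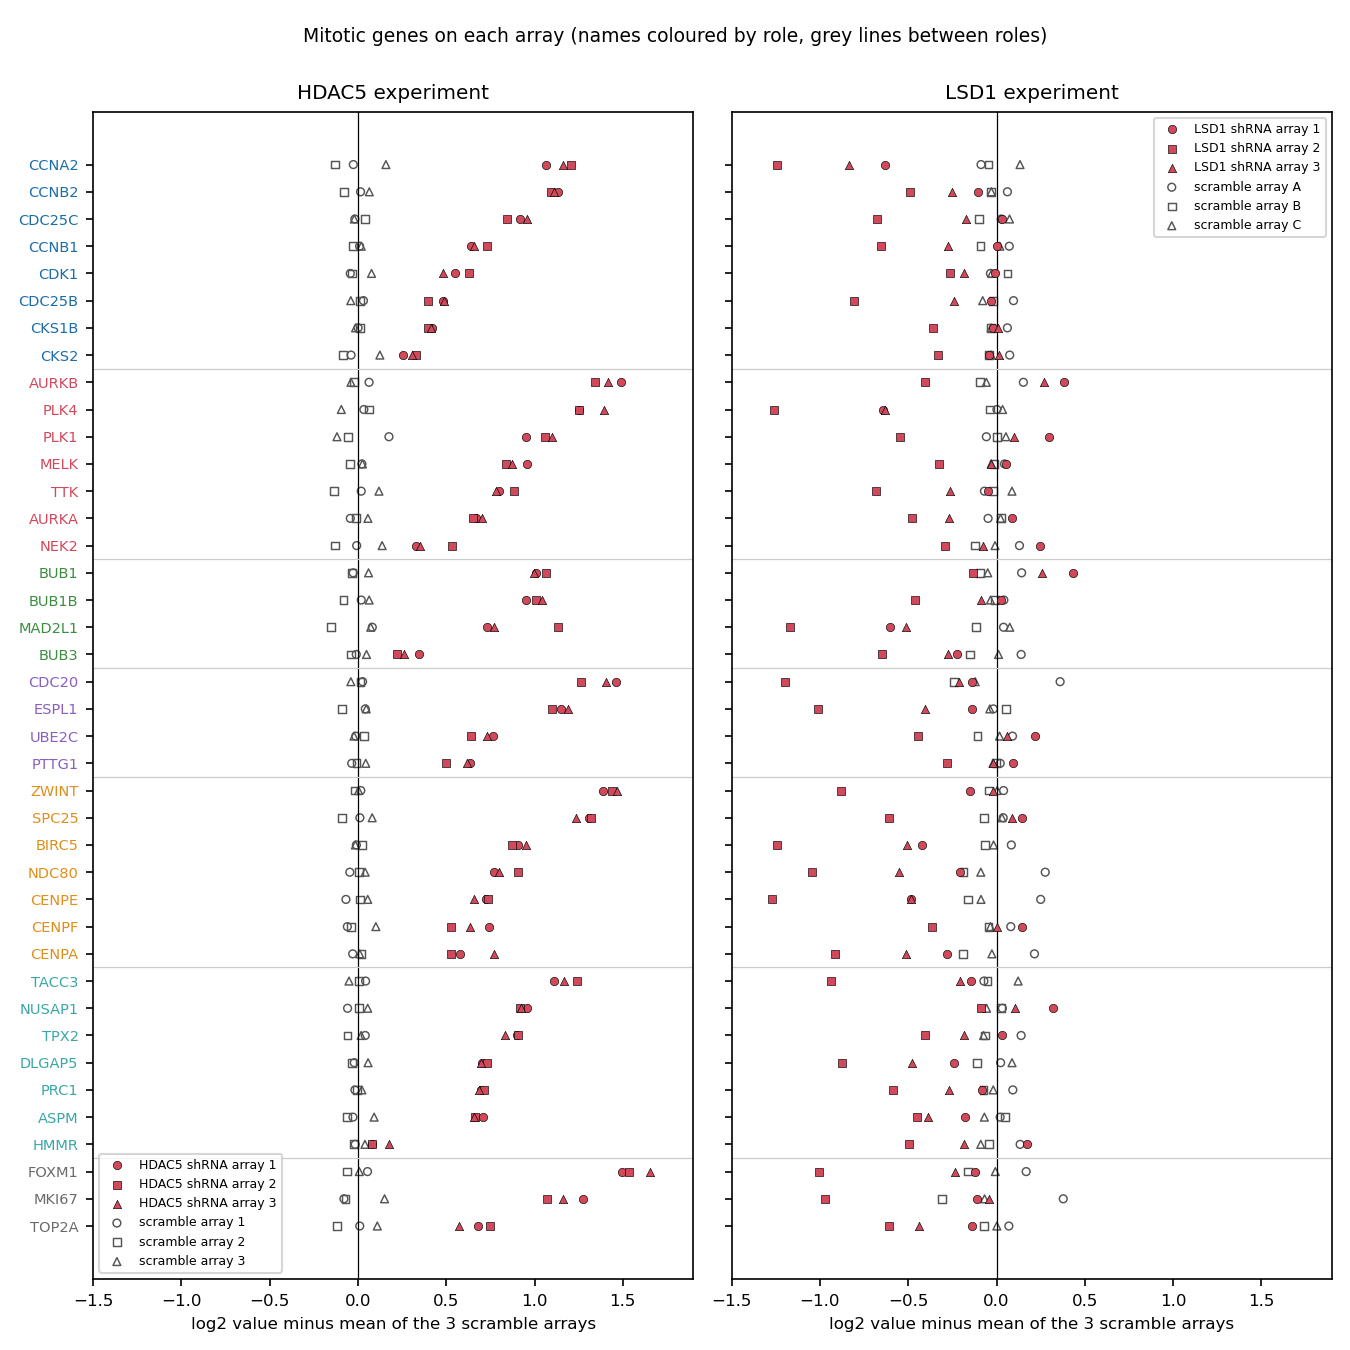
Log2 value of each of the 40 genes on each array minus the mean of the 3 scramble arrays of its experiment (x axis), HDAC5 experiment left and LSD1 experiment right; filled symbols are shRNA arrays and open symbols scramble arrays. In the left panel every filled symbol lies right of the open ones, and in the right panel the filled squares, LSD1 shRNA array 2, are leftmost in all 40 rows.

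Among the 8 genes that set CDK1 activity, all rose, by 0.30 to 1.15. The cyclin A2 gene CCNA2, which acts in S phase and G2, was at 10.14, 10.28 and 10.24 with HDAC5 shRNA, against 9.05, 8.94 and 9.23 with scramble. The groups lay well apart, and the change of 1.15 (SE 0.07, limma adjusted p = 8.15e-07) was a 2.21-fold rise. The mitotic cyclin gene CCNB2 rose by 1.11 (SE 0.04) and CDC25C, a phosphatase gene that activates CDK1, by 0.91 (SE 0.05), whereas CCNB1 rose by 0.68 (SE 0.04) and CDC25B by 0.45 (SE 0.04). For CDK1 itself the arrays gave 12.09, 12.17 and 12.02 with HDAC5 shRNA, against 11.50, 11.51 and 11.62 with scramble, a change of 0.55 (SE 0.05). Its other 2 probe sets, which were dimmer, rose by 1.08 and 1.11, so the size of the CDK1 rise depended on the probe set. CKS1B and CKS2 encode small proteins that bind CDKs, and their sets, named with _s_at, can match related transcripts. They rose by 0.41 (SE 0.03) and 0.30 (SE 0.05), and CKS2 was at 12.24, 12.32 and 12.30 with HDAC5 shRNA, against 11.95, 11.91 and 12.12 with scramble.

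All 7 mitotic kinase genes rose, by 0.41 to 1.41. AURKB, the kinase of the chromosomal passenger complex that corrects wrong attachments, had the largest change of the 7, with 9.74, 9.59 and 9.66 in HDAC5 shRNA cells, against 8.31, 8.23 and 8.21 in scramble cells. The change was 1.41 (SE 0.06, adjusted p = 4.04e-08, limma), and the 2 groups were more than 1 log2 unit apart. PLK4, the kinase that starts centriole duplication, followed at 1.30 (SE 0.06), and PLK1 at 1.04 (SE 0.08). MELK, often used as a proliferation marker, rose by 0.89 (SE 0.04), the checkpoint kinase gene TTK by 0.82 (SE 0.06) and AURKA, the kinase of the spindle poles, by 0.67 (SE 0.04). NEK2, a centrosome kinase gene, rose least, with 10.57, 10.77 and 10.59 against 10.23, 10.11 and 10.38, a change of 0.41 (SE 0.07, adjusted p = 0.00112, limma). Here the groups did not overlap, but the gap between them was smaller than in the other kinases. The other probe set of NEK2, which was dimmer, rose by 0.68, so its place as the smallest depended on the probe set.

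The 4 checkpoint genes rose by 0.28 to 1.02. BUB1, a kinase at unattached kinetochores, had 10.57, 10.63 and 10.56 in HDAC5 shRNA cells and 9.54, 9.53 and 9.63 in scramble cells, a change of 1.02 (SE 0.04, limma adjusted p = 6.59e-08). BUB1B, which encodes the APC/C inhibitor BUBR1, rose by 1.00 (SE 0.05) and MAD2L1, which encodes the checkpoint protein MAD2, by 0.88 (SE 0.10). The rise of BUB3, the protein that brings BUB1 and BUBR1 to the kinetochore, was 0.28 (SE 0.04, adjusted p = 0.000267) on its brightest probe set, with 12.08, 11.95 and 11.998 against 11.72, 11.70 and 11.78. It was not shared by its other probe sets: 1 fell by 0.13, and the other 2 (0.07 and -0.10) did not pass. With the mean of the 4 sets the change was 0.03 (adjusted p = 0.538, limma), so the call of BUB3 rested on 1 probe set. That set, named with _x_at, can match related genes.

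The 4 genes of the APC/C and separase axis rose by 0.58 to 1.38. CDC20, the activator of the APC/C in mitosis, was at 11.01, 10.81 and 10.95 with HDAC5 shRNA, against 9.57, 9.56 and 9.51 with scramble. This was a 2.60-fold rise (change 1.38, SE 0.05, limma adjusted p = 4.04e-08), and the groups lay well apart. ESPL1, which encodes separase, the protease that cuts cohesin at anaphase, rose by 1.15 (SE 0.05), and its other probe set by 1.18. UBE2C, the ubiquitin-conjugating enzyme of the APC/C, rose by 0.71 (SE 0.04). PTTG1, which encodes securin, the inhibitor of separase, rose by 0.58 (SE 0.04), with 12.78, 12.65 and 12.77 against 12.12, 12.14 and 12.20 (its set, named with _x_at, can match related genes).

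All 7 genes of the kinetochore and the chromosomal passenger complex rose, by 0.62 to 1.43. ZWINT, an outer kinetochore protein, had 11.50, 11.55 and 11.58 in HDAC5 shRNA cells, against 10.13, 10.09 and 10.12 in scramble cells. With arrays this close together within each group, its change of 1.43 (SE 0.04) had the lowest adjusted p of the 40 genes (3.04e-09, limma). SPC25 and NDC80, 2 subunits of the NDC80 complex that grips microtubules, rose by 1.29 (SE 0.06) and 0.83 (SE 0.05). BIRC5, which encodes survivin of the passenger complex, rose by 0.91 (SE 0.04), the kinetochore motor gene CENPE by 0.71 (SE 0.05) and CENPF by 0.63 (SE 0.06). The centromeric histone gene CENPA was at 9.28, 9.23 and 9.47 with HDAC5 shRNA and at 8.67, 8.72 and 8.71 with scramble, a change of 0.62 (SE 0.06). The CENPA set, named with _x_at, can match related genes.

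Of 7 spindle genes, 6 rose, by 0.68 to 1.17, and HMMR did not pass. TACC3, which stabilises spindle microtubules with clathrin, rose most, with 9.45, 9.59 and 9.51 in HDAC5 shRNA cells, against 8.39, 8.35 and 8.29 in scramble cells (change 1.17, SE 0.05, limma adjusted p = 9.02e-08). NUSAP1 rose by 0.93 (SE 0.04), and on its other probe set by 1.52, more than TACC3. The spindle assembly factor gene TPX2 rose by 0.88 (SE 0.04) and DLGAP5 by 0.71 (SE 0.04). PRC1, the bundler of midzone microtubules, rose by 0.70 (SE 0.03), and the spindle pole gene ASPM by 0.68 (SE 0.05). HMMR, which encodes a hyaluronan receptor that also binds the spindle, had 9.38, 9.38 and 9.48 with HDAC5 shRNA and 9.29, 9.28 and 9.34 with scramble. Its arrays did not overlap, but the change of 0.11 (SE 0.05, adjusted p = 0.0868, limma) was small, and its other probe set, at 0.17 (adjusted p = 0.0819), did not pass either. The 95% interval of the change ran from 0.0047 to 0.22, below every change of the other 6 spindle genes.

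FOXM1, a transcription factor of the G2 and M programme, had the largest change of the 40 genes on their brightest probe sets, whereas the other set of CCNA2 rose by 1.69. The arrays gave FOXM1 at 10.69, 10.73 and 10.85 with HDAC5 shRNA, against 9.25, 9.14 and 9.20 with scramble. This was a 2.95-fold rise (change 1.56, SE 0.05, limma adjusted p = 1.91e-08), on a set named with _x_at, which can match related genes. MKI67, which encodes the proliferation antigen Ki-67, rose by 1.17 (SE 0.07), with 10.19, 9.98 and 10.08 against 8.83, 8.84 and 9.06, and its other 3 probe sets by 1.02 to 1.31. TOP2A, the topoisomerase that untangles sister chromatids, had 11.66, 11.73 and 11.55 in HDAC5 shRNA cells and 10.99, 10.86 and 11.09 in scramble cells, a change of 0.67 (SE 0.06, limma adjusted p = 1.12e-05). All 3 were higher on every HDAC5 shRNA array than on any scramble array.

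Of the 40 genes, 15 had 28 further probe sets, and in a fit over all single-symbol sets 22 of them rose (2 of these below the lower quartile of the arrays in both groups), 1 of BUB3 fell, and 5 did not pass (2 each of BUB1 and BUB3 and 1 of HMMR). On their brightest sets 21.3% of all genes rose and 23.2% fell, and the share over all sets in this fit is not given. BUB3 was also the gene that left the count of 39 in a fit of all 12 arrays (adjusted p = 0.0579), whereas HMMR entered it with array weights (adjusted p = 0.0386). Leaving out any 1 of the 6 arrays kept the count at 39.

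Which side of the comparison was unusual for this cell line cannot be decided within 6 arrays, so the levels of the other experiment are set beside it. The median log2 level of the 40 genes was 10.70 with HDAC5 shRNA and 9.89 with its scramble, and 10.90 with LSD1 shRNA and 11.21 with its scramble. Values of all genes were higher in the LSD1 experiment, so the same was computed after quantile normalization of the 12 arrays, which moved the medians to 10.87, 10.06, 10.72 and 11.02 in the same order. As deposited, HDAC5 shRNA was above the LSD1-experiment scramble for 1 of the 40 genes (15.7% of all genes), with a median difference of -0.41, against -0.40 over all genes. After quantile normalization it was above for 14 (50.4% of all genes), with a median difference of -0.06, against 0.004 over all genes. The HDAC5-experiment scramble was below the LSD1-experiment scramble for all 40 genes on both scales (77.5% and 50.5% of all genes), with median differences of -1.17 as deposited and -0.80 after normalization, against -0.41 and -0.006 over all genes. Offsets of single probe sets between experiments can remain in such values, and the experiment and the scramble set cannot be told apart.

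With LSD1 shRNA the same genes were mostly lower by small amounts, and nearly all of them missed the threshold. CCNA2 and PLK4 fell (2 of 40, limma adjusted p under 0.05), where 2.00% of all genes fell, and none rose, where 2.93% of all genes did (4.92% in either direction). By value 37 of the 40 were lower, against 48.3% of all genes, and 3 were higher, against 51.7%, with a median change of -0.31 against 0.007 over all genes. The arrays did not overlap, with LSD1 shRNA lower, for 15 of the 40, against 12.7% of all genes. At an unadjusted p under 0.05, 14 were lower and none higher, where 10.0% of all genes were lower.

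These values rested in part on 1 array. LSD1 shRNA array 2 was the lowest of the 6 arrays for all 40 genes, with a median of -0.61 relative to the scramble mean, against -0.05 and -0.21 on LSD1 shRNA arrays 1 and 3. Scramble arrays A, B and C were at 0.07, -0.06 and -0.02, so B was the lowest of them. KDM1A was at 6.81 on array 2 and at 6.48 and 6.60 on arrays 1 and 3, so the target was low on all 3. The ACTB difference, 3′ over 5′, of array 2 was 1.34, below those of arrays 1 (1.38) and 3 (1.56), and its part was not tested. Without array 2 the median change was -0.12, 30 of the 40 genes were lower by value, against 46.2% of all genes, and 4 fell: CCNA2, PLK4, MAD2L1 and BIRC5. In that fit 2.99% of all genes fell and 3.58% rose. The arrays then did not overlap, with LSD1 shRNA lower, for 15 genes, against 18.9% of all genes, and LSD1 shRNA was higher without overlap for 5, against 22.2% of all genes.

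**Figure D3:**
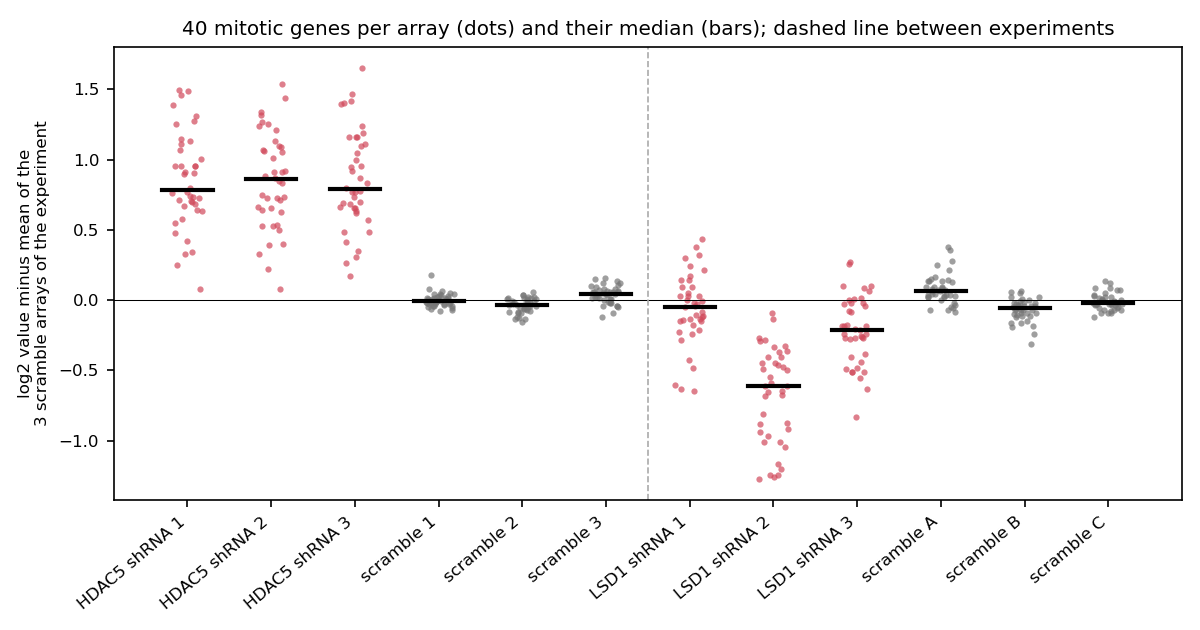
Each dot is 1 of the 40 genes on 1 array, as its log2 value minus the mean of the 3 scramble arrays of the same experiment (y axis), and bars are medians over the 40 genes; red marks shRNA arrays and grey scramble arrays. Medians are 0.79, 0.86 and 0.79 with HDAC5 shRNA and -0.05, -0.61 and -0.21 with LSD1 shRNA arrays 1, 2 and 3.

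Among CDK1 activity genes, CCNA2 fell to 10.14, 9.53 and 9.94 with LSD1 shRNA, against 10.69, 10.73 and 10.91 with scramble, a change of -0.90 (SE 0.16, limma adjusted p = 0.0305). Every LSD1 shRNA array was below every scramble array, and without array 2 the fall was still called. The call of CCNA2 was lost when any other array was left out (adjusted p = 0.0551 to 0.147), and so was that of PLK4 (0.0832 to 0.183). In the fit over all single-symbol sets, the other set of CCNA2 was at -1.12 and did not pass (limma adjusted p = 0.0631). The brightest set of CCNA2 passed there (0.0328), but that of PLK4 did not (0.0511). The other 7 genes of the group were at -0.36 to -0.12 and did not pass, with CKS2 nearest to 0 at 12.94, 12.66 and 13.00, against 13.06, 12.94 and 12.96 (change -0.12, SE 0.09).

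In the kinase group PLK4 had 8.50, 7.88 and 8.51 in LSD1 shRNA cells, against 9.14, 9.10 and 9.18 in scramble cells, a change of -0.84 (SE 0.18, adjusted p = 0.0481, limma). Its 3 scramble arrays lay within 0.1 of each other and all above the LSD1 shRNA arrays, and a further probe set fell by 0.92. The third set also passed as lower but was below the lower quartile of the arrays in both groups, so its size is not given. AURKB, in contrast, had 11.06, 10.27 and 10.95 against 10.83, 10.59 and 10.62. Arrays 1 and 3 were above all scramble arrays and array 2 below them, and the change of 0.08 (SE 0.21) did not pass. Its 95% interval ran from -0.41 to 0.57, which leaves room for a change of either sign.

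Of the checkpoint genes MAD2L1 was lowest, with 10.59, 10.03 and 10.69 with LSD1 shRNA and 11.24, 11.08 and 11.27 with scramble. The groups did not overlap, but the change of -0.76 (SE 0.18) missed the threshold (limma adjusted p = 0.0604). BUB1 had the highest change of the 40 genes, 0.19 (SE 0.15), with 11.002, 10.43 and 10.82 against 10.71, 10.47 and 10.52, and did not pass. BUB3 was at -0.38 (SE 0.13, adjusted p = 0.144), with no overlap between groups. Of its further sets 2 fell, by 0.30 and 0.52, and with the mean of its 4 sets it fell by 0.37 (adjusted p = 0.025, limma).

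No gene of the APC/C and separase axis passed, with CDC20 at -0.52 (SE 0.30) and PTTG1 at -0.07 (SE 0.09). ESPL1 had 10.23, 9.36 and 9.96 with LSD1 shRNA, against 10.35, 10.42 and 10.33 with scramble, without overlap (change -0.52, SE 0.21). UBE2C had 12.71, 12.05 and 12.55 with LSD1 shRNA and 12.58, 12.38 and 12.51 with scramble, which overlapped (change -0.06, SE 0.16). CDC20 spread widely, with 11.33, 10.26 and 11.25 in LSD1 shRNA cells and 11.82, 11.22 and 11.34 in scramble cells. Array 2 was about 1 log2 unit below the other LSD1 shRNA arrays, and scramble array A was above the other 2 scramble arrays.

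Kinetochore genes had the lowest median of the role groups, -0.57. For 4 of the 7 the arrays did not overlap, with LSD1 shRNA lower, against 12.7% of all genes, yet none passed. CENPE had 10.12, 9.33 and 10.12 with LSD1 shRNA, against 10.86, 10.44 and 10.52 with scramble, a change of -0.75 (SE 0.23, limma adjusted p = 0.126). BIRC5 was at -0.73 (SE 0.21), NDC80 at -0.60 (SE 0.23) and CENPA at -0.57 (SE 0.19), each with LSD1 shRNA arrays below the scramble arrays, while CENPF overlapped, with 10.84, 10.33 and 10.70 against 10.78, 10.65 and 10.66 (change -0.07, SE 0.14). Spindle genes had a median of -0.31, from DLGAP5 at -0.53 (SE 0.16), with 11.29, 10.66 and 11.05 against 11.55, 11.42 and 11.62, to NUSAP1 at 0.11 (SE 0.11), with 11.94, 11.53 and 11.72 against 11.65, 11.64 and 11.56. The other probe set of NUSAP1 was at -0.19 and did not pass either, so the sign of its change depended on the probe set. FOXM1, TOP2A and MKI67 were at -0.46 (SE 0.23), -0.40 (SE 0.12) and -0.37 (SE 0.28). FOXM1 had 11.27, 10.39 and 11.15 in LSD1 shRNA cells, against 11.56, 11.23 and 11.39 in scramble cells, so array 2 again lay apart from the other 2. MKI67 had 10.43, 9.57 and 10.50 in LSD1 shRNA cells and 10.92, 10.23 and 10.48 in scramble cells, and the groups overlapped. Its further probe sets were lower, at -0.75, -0.70 and -0.85, so the size of the MKI67 change depended on the probe set. Only the set at -0.70 passed (limma adjusted p = 0.0443). Of the 28 further probe sets of the 40 genes, 5 fell (2 each of PLK4 and BUB3 and 1 of MKI67) and none rose, and 1 of the PLK4 sets was below the lower quartile of the arrays. On their brightest sets 2.00% of all genes fell and 2.93% rose.

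The changes in the 2 experiments were compared in 1 fit of 12 arrays, in which no array is shared between the comparisons. The HDAC5 change was above the LSD1 change for 38 of the 40 genes and below it for none (limma adjusted p under 0.05), where 15.7% of all genes were called higher and 16.1% lower (31.8% in either direction). The median difference was 1.12 on the log2 scale. It was widest for PLK4, at 2.14 (SE 0.20), CCNA2, at 2.05 (SE 0.19), and FOXM1, at 2.02 (SE 0.25). NEK2 (0.45, SE 0.18, adjusted p = 0.0728) and HMMR (0.28, SE 0.19, adjusted p = 0.302) did not pass. Without LSD1 shRNA array 2 the median difference was 0.97 and 38 genes were again called.

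**Figure D4:**
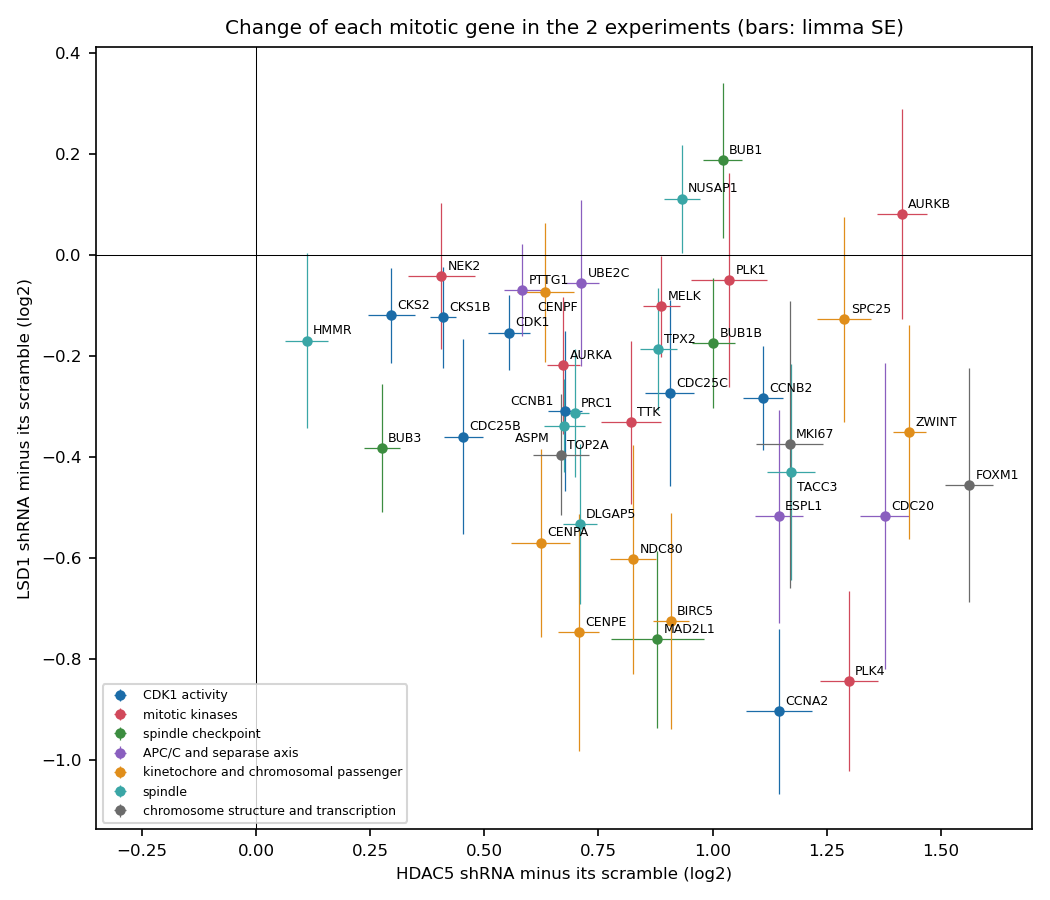
Change of each of the 40 genes with HDAC5 shRNA (x axis, log2) and with LSD1 shRNA (y axis, log2), each against its own scramble; bars are limma standard errors and colours mark roles. All 40 genes lie right of 0, from 0.11 for HMMR to 1.56 for FOXM1, and 37 lie below 0 on the y axis, with CCNA2 and PLK4 lowest.

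Other genes of cell division were read from lists chosen by role. Their counts stand beside the 21.3% of all genes that rose and the 23.2% that fell with HDAC5 shRNA. With HDAC5 shRNA, 23 of 25 other kinetochore and centromere genes rose and none fell (median 0.89). SPC24 (-0.09) did not pass, and neither did KNL1, whose probe set averaged 3.26 with HDAC5 shRNA and 3.11 with scramble, below the lower quartile of every array, so that a change could not be read (both named after their values were seen). The largest changes of the list were in CENPI (1.81, SE 0.14) and CENPM (1.75, SE 0.05), of the inner kinetochore, and DSN1 (1.73, SE 0.07), of the MIS12 complex. All 8 condensin genes, whose products compact chromosomes, rose (median 0.96), with NCAPH at 1.25 (SE 0.05), NCAPG at 1.19 (SE 0.05) and NCAPG2 at 1.08 (SE 0.05). Of 10 tubulin genes, 9 rose and 1, the dim TUBB2B, fell (median 1.12), led by TUBB2A (1.79, SE 0.04), TUBA4A (1.50, SE 0.06) and TUBB3 (1.48, SE 0.04); tubulin genes are alike in sequence, so their probe sets may share signal.

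Among 14 centrosome genes 10 rose and 3 fell (median 0.55), with the gamma-tubulin gene TUBG1 at 1.30 (SE 0.05), the centriole factor gene STIL at 1.14 (SE 0.07) and CEP76 at 1.08 (SE 0.06). Of 9 genes that control CDK1 from outside, 7 rose and none fell (median 0.27): the phosphatase gene CDC25A by 2.00 (SE 0.07), the CDK1-inhibiting kinase gene PKMYT1 by 0.95 (SE 0.08) and the PP2A inhibitor gene ENSA by 0.76 (SE 0.04) had the largest changes. Cohesin genes moved less, with 4 of 8 up and none down (median 0.16), and SMC1A at 0.78 (SE 0.04) was the largest, before PDS5B at 0.38 (SE 0.04) and NIPBL at 0.34 (SE 0.07). The APC/C list was mixed, with 4 of 10 up and 2 down (median 0.10), where 21.3% of all genes rose and 23.2% fell. In this list FBXO5, whose product EMI1 inhibits the APC/C, rose by 1.14 (SE 0.05), ANAPC15 by 0.51 (SE 0.07) and CDC23 by 0.39 (SE 0.05). In the list of MuvB and its partner factors 4 of 9 rose and 2 fell (median -0.09), with the B-MYB gene MYBL2 at 1.71 (SE 0.10), RBL1 at 0.90 (SE 0.15) and TFDP1 at 0.81 (SE 0.04). All 39 DNA replication genes rose, with a median of 1.52 beside the 0.85 of the 40 mitotic genes. The range was 0.69 to 3.44 for replication and 0.11 to 1.56 for mitotic genes, and this difference between lists was not tested.

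With LSD1 shRNA few genes of these lists passed and none rose, where 2.00% of all genes fell and 2.93% rose (4.92% in either direction). NCAPG fell by 1.44 (SE 0.21, limma adjusted p = 0.0181), further than any of the 40 genes. The cohesin genes PDS5A (-0.45, SE 0.08) and SMC3 (-0.42, SE 0.08), the centriole gene CEP135 (-0.43, SE 0.08), the MuvB subunit gene RBBP4 (-0.41, SE 0.08), the APC/C subunit gene CDC23 (-0.40, SE 0.09), the PP2A subunit gene PPP2R2A (-0.40, SE 0.07) and TUBB6 (-0.36, SE 0.08) also fell. None of 25 other kinetochore genes (median -0.11) and none of 39 replication genes (median -0.33) passed. The replication median relative to the scramble mean was -0.15, -0.75 and -0.07 on LSD1 shRNA arrays 1, 2 and 3, so here too array 2 was far below the other 2.

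**Figure D5:**
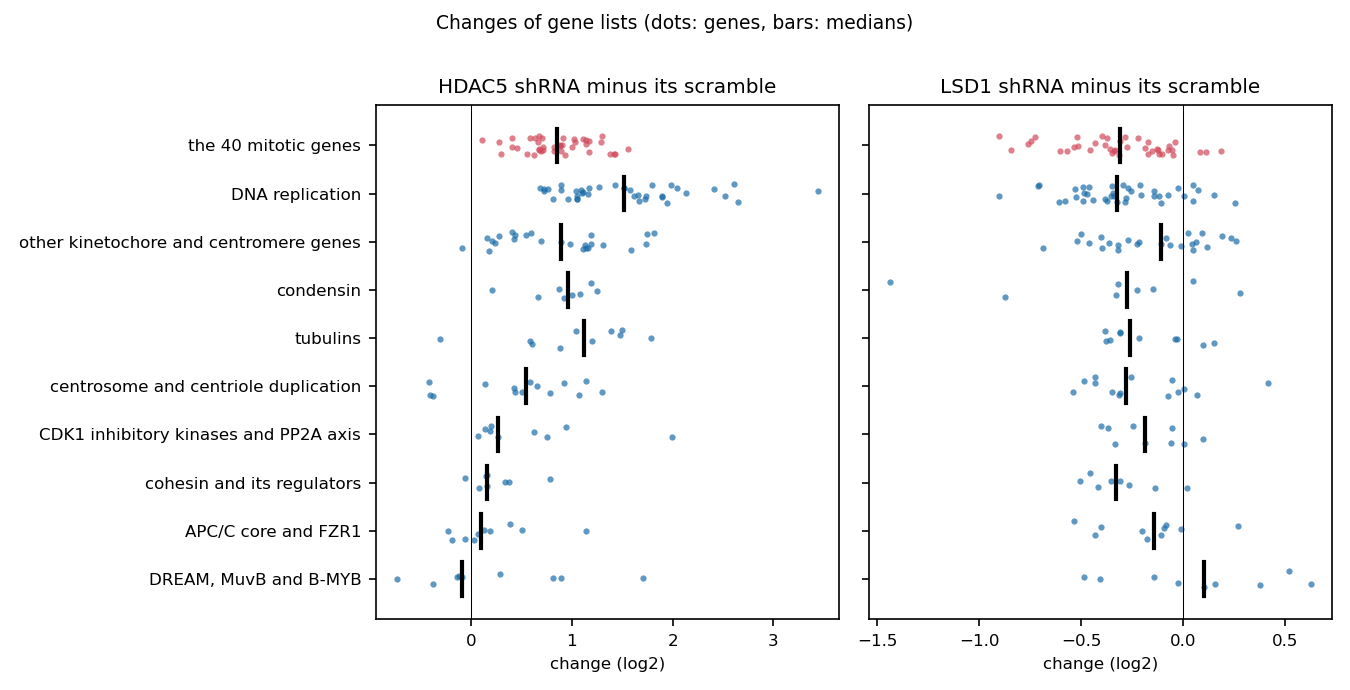
Change of each gene (dots, log2) and median (bars) in the 40 mitotic genes and 9 further lists, with HDAC5 shRNA left and LSD1 shRNA right, each against its own scramble. With HDAC5 shRNA the medians run from -0.09 for the MuvB list to 1.52 for replication, with the 40 mitotic genes at 0.85, and with LSD1 shRNA from -0.33 to 0.10.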

How the data were processed

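The deposited values are log2 expression values, 1 per probe set and array, made by the authors with RMA in the affy package, per the submitters' processing notes; versions, and whether the 12 arrays were processed jointly, were not stated. RMA removes shifts shared by most transcripts and compresses ratios at low and very high signal. Of 22277 probe sets, 62 controls were left out; 19064 had 1 symbol in the platform annotation, and 1043 with several and 2108 with none were not used. Symbols were updated by gene ID through RefSeq (GRCh38.p14; 19052 matched), and the set with the highest mean over 12 arrays stood for a gene, with no filter on dim sets.

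Each shRNA was compared with its own scramble (3 arrays against 3) with limma 3.58.1 in R 4.3.3, with a mean-variance trend, and the difference of the changes as a contrast over 12 arrays; p-values were adjusted by Benjamini-Hochberg over 11963 genes. Standard errors are moderated. The number of arrays limits the precision. The fits were tested on simulated data. The 40 genes, lists, roles and tests were chosen with earlier results of these data known. Named were, by rule, all 40 genes (the largest and smallest of each role in full), both targets, and up to 3 called, non-overlapping genes per list with the largest change. Probe set choice, dim sets, quantile normalization, trend, array weights, pooled spread, a replicate block and leaving out arrays were tried. Replicate numbers 1 to 3 are shared by HDAC5 shRNA and its scramble, but same-numbered arrays did not deviate together (correlations -0.05, -0.21 and -0.15).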

Additional observations from a re-analysis of the deposited data

Results flagged for a closer look

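The changes with HDAC5 shRNA and with LSD1 shRNA, each against its own scramble, differed for 38 of the 40 mitotic genes in the limma contrast over 12 arrays, and the values below are the HDAC5 change minus the LSD1 change on the log2 scale. Among CDK1 activity genes they were CDK1 (0.71), CCNA2 (2.05), CCNB1 (0.98), CCNB2 (1.39), CDC25B (0.81), CDC25C (1.18), CKS1B (0.53) and CKS2 (0.42). The kinase genes were PLK1 (1.09), PLK4 (2.14), AURKA (0.89), AURKB (1.33), TTK (1.15) and MELK (0.99). In the checkpoint group the values were BUB1 (0.83), BUB1B (1.18), BUB3 (0.66) and MAD2L1 (1.64), and on the APC/C and separase axis CDC20 (1.89), UBE2C (0.77), PTTG1 (0.65) and ESPL1 (1.66). Kinetochore and passenger genes had CENPA (1.19), CENPE (1.45), CENPF (0.71), NDC80 (1.43), SPC25 (1.42), ZWINT (1.78) and BIRC5 (1.63). The spindle genes had TPX2 (1.07), NUSAP1 (0.82), PRC1 (1.01), ASPM (1.01), DLGAP5 (1.24) and TACC3 (1.60), and the remaining ones TOP2A (1.06), MKI67 (1.54) and FOXM1 (2.02). For BUB3 the HDAC5 change was not shared by its further probe sets.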

How the results depend on the processing

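With HDAC5 shRNA the number of mitotic genes that rose was 38 to 40 in every alternative run, and the median change was 0.79 to 0.89 when 1 array was left out. A fit of all 12 arrays called 3512 genes in all, against 5319. With the replicate block 39 genes rose (median 0.85) and 4869 of all genes were called; the numbers do not pair the arrays. No paired fit was made in the LSD1 experiment, whose names A to C and 1 to 3 share nothing.

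With LSD1 shRNA the calls moved with most settings. Beside the 2 genes that fell, 1 did with quantile normalization, 4 with array weights (where 1, BUB1, rose) and 14 with all 12 arrays in 1 fit, where the spread of the HDAC5 experiment enters. Leaving out 1 array gave 0 to 4: 4 without LSD1 shRNA array 2 and 0 without any other. Over all genes 589 were called, against 2053 with array weights, 2297 with 12 arrays and 104 to 786 without 1 array (786 without LSD1 shRNA array 2; 270, 111 and 104 without scramble A, B and C; 150 and 206 without LSD1 shRNA 1 and 3). Without LSD1 shRNA array 2 and scramble array B, chosen after seeing the data, 0 genes fell, 116 of all genes were called and the median was -0.15. The cause was not tested, and these fits also hold fewer arrays. No called gene changed sign in any alternative. For the difference of the changes, 37 to 40 of the mitotic genes were called in every alternative run.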

Other observations

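Across the 40 genes, which are not independent since all are read on the same arrays, the changes with HDAC5 and LSD1 shRNA were weakly related (Pearson r = -0.194, Spearman rho = -0.198). The HDAC5 change was smaller for genes with a higher level in its scramble (Pearson r = -0.592, Spearman rho = -0.632). The order of genes by size of change thus went in part with signal level. Since the scramble level also enters the change, part of this relation is built in, and its cause was not tested. The 23 genes with a CHR match had a median HDAC5 change of 0.88 and the 10 without one 0.80, with ranges of 0.11 to 1.43 and 0.41 to 1.41, and their median LSD1 changes were -0.31 and -0.29.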
